A study of Mus musculus with 12 samples.

Results

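The IGHV1 family is the largest family of heavy-chain V genes in the C57BL/6 mouse, and its use was described here in sorted antibody-secreting cells. A cell was kept when its barcode carried exactly 1 productive immunoglobulin heavy-chain (IGH) contig, an assembled transcript, and it counted as an IGHV1 cell when the V gene of that contig was named IGHV1 followed by a dash. Barcodes with 2 or more such contigs, 0 to 14 per library, were left out, which removes doublets (droplets with 2 cells) that carry 2 heavy chains, and no doublet caller was run. By this rule 4182 of 8415 cells were IGHV1 cells, and they used 47 different IGHV1 genes. A clone was the set of cells with the same V gene, J gene and CDR3 amino acid sequence. Summed over libraries, 2054 of 3788 clones were IGHV1 clones.

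The study sorted antibody-secreting cells of thymus, spleen and bone marrow from Prdm1-eYFP mice (C57BL/6 background, aged 3 months), in pools labelled female and pools labelled male. The gate was B220+/-, CD138 high, IgD-, CD90.2- and Prdm1-eYFP+, so every cell carried the yellow fluorescent reporter of Prdm1, the gene for the factor BLIMP-1 that marks plasma cell differentiation. Each sort pooled 3 mice, and each tissue and sex label gave 1 droplet well, 1 gene expression library and 1 V(D)J library, so a tissue has 2 libraries. No treatment is named, all 6 libraries share the reporter strain and age, and p-values measure the spread between these libraries, not between single mice. The edgeR fits pooled that spread over all genes or families tested. Their SEs and p-values therefore do not rest on the spread of a single gene or family alone. Libraries of 1 label shared clones and were not independent of each other, so the exact permutation p-values over 6 libraries are too small as measures of the spread between pools.

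The sex labels of the V(D)J libraries went against their cell barcodes. The V(D)J library of bone marrow labelled female shared 1718 of its 1778 barcodes with the gene expression library of bone marrow labelled male, and the other 5 V(D)J libraries likewise shared more barcodes with the gene expression library of the same tissue and the opposite label than with any other, from 49.9% of barcodes in thymus labelled male to 100% in spleen labelled male. The tissue labels held. The libraries are therefore called "labelled female" and "labelled male" after their V(D)J label, no sex contrast was tested, and the fits between tissues use the label only to tell the 2 pools apart. Kept cells numbered 586 to 2889 per library. The thymus library labelled male was the thinnest, with a median of 26.5 UMIs (counted RNA molecules) per IGHV1 contig against 194 to 816 in the other libraries, and 333 of its 667 barcodes were in a gene expression library.

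Gene expression data of the same barcodes checked both the V gene and the cell type. Among IGHV1 cells found in the matching gene expression library, the Ighv gene with the most UMIs was the V gene of the contig in 81.0% of cells in the thymus library labelled male and in 96.6% to 99.4% in the other 5 libraries. Among other IGHV cells it was the same in 62.8% of cells in thymus labelled male, 76.6% in thymus labelled female and 94.3% to 98.8% elsewhere, and an Ighv1 gene led in 19.6% and 11.1% of those cells of the 2 thymus libraries. The 7 markers of antibody-secreting cells (Prdm1, Xbp1, Sdc1, Irf4, Jchain, Mzb1, Tnfrsf17) were all detected in each library and summed to 29840 to 48207 CPM (UMIs scaled to a common total per library). Most of each sum was Jchain, at 25235 to 42661 CPM. By cell, detection of Prdm1, Sdc1 and Tnfrsf17 was lowest in thymus labelled male, in 53.6%, 27.1% and 14.4% of 306 cells, while Jchain was in 99.7% of them. The 8 T cell markers summed to 2.75 to 28.5 CPM, and the 8 B cell markers to 342 to 453 CPM, with 3 of these 8 at 0 in both thymus libraries. Most of the B cell sum was Cd79b, at 259 to 403 CPM. Neutrophil markers reached 276 and 424 CPM in the bone marrow libraries and at most 0.0437 elsewhere, and their part in the results was not tested.

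A heavy-chain variable region is built by joining a V, a D and a J gene segment, and the joint codes for CDR3, the most variable loop of the binding site. CDR1 and CDR2 lie within the V segment, between framework stretches that carry the fold. After activation, the enzyme AID can substitute bases in the rearranged V region (somatic hypermutation) and can switch the constant region from IGHM to the IGHG or IGHA genes. IGHV1, also called the J558 family, fills the part of the mouse locus farthest from the D and J segments.

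The annotation used (GENCODE vM21, build GRCm38) lists 92 IGHV1 genes on the minus strand of chromosome 12, from base 114351705 to base 116010093, of which 53 are annotated as functional V genes and 39 as pseudogenes. All 47 genes seen in the cells were among the functional ones, and 6 functional genes were in no cell. Of the 47 genes, 29 were in all 6 libraries and 1 was in a single library.

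IGHV1 was the family with the most clones in every library, and its share did not pass a test between tissues. Its share of clones was 59.1% in bone marrow labelled female and 58.4% in bone marrow labelled male. It was 54.8% and 50.1% in spleen, and 49.1% and 52.6% in thymus, in the same order of labels. Both bone marrow libraries stood above the other 4. The next family, IGHV5, had a mean share of 8.37% over the 6 libraries against 54.0% for IGHV1. In edgeR's quasi-likelihood test over the 14 IGHV families, IGHV1 was not called in any tissue contrast. The log2 fold change in clones was -0.21 (SE 0.12, Benjamini-Hochberg adjusted p = 0.295) for thymus against bone marrow, -0.16 (SE 0.11, adjusted p = 0.288) for spleen against bone marrow and -0.05 (SE 0.11, adjusted p = 0.718) for thymus against spleen. The size of these values depended on the setting, without a call for IGHV1. Thymus against bone marrow was -0.088 with TMM, -0.43 with DESeq2 and -0.12 without thymus labelled female. Spleen against bone marrow was -0.043 with TMM, -0.32 with DESeq2, -0.47 by cells, -0.25 without spleen labelled female and -0.089 without spleen labelled male. Of the 14 families, 0% were called in both thymus contrasts and 14.3% in spleen against bone marrow.

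Counted by cells, the share of cells was 61.7% in bone marrow labelled female, 36.8% in spleen labelled female, 48.7% in thymus labelled female, 60.6% in bone marrow labelled male, 52.6% in spleen labelled male and 53.2% in thymus labelled male. The low value in spleen labelled female went with 977 cells of 1 IGHV9-3 clone. Without that clone IGHV1 made up 55.6% of the cells of that library.

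**Figure D1:**
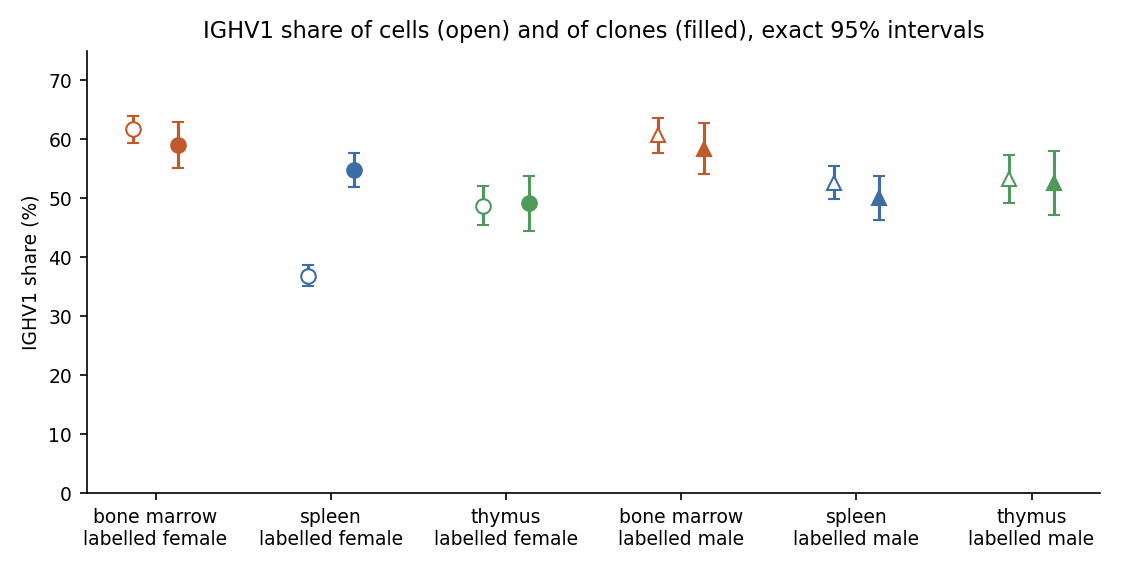
IGHV1 share of cells (open symbols) and of clones (filled symbols) in each of the 6 V(D)J libraries, in percent, with exact (Clopper-Pearson) 95% binomial intervals that cover counting error only. Clone shares lie between 49.1% and 59.1%, and the share of cells in spleen labelled female, 36.8%, lies below its share of clones.

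Use within the family was uneven. The 5 genes with the highest mean share held 32.9% to 44.5% of IGHV1 clones per library, and the first 20 held 76.2% to 82.0%. IGHV1-53 (chr12:115158403-115158835) led with a mean of 5.62% of all clones (SD 1.90, n = 6). Its share was 3.92%, 4.97% and 3.13% in bone marrow, spleen and thymus labelled female, and 6.58%, 7.60% and 7.51% in the same tissues labelled male. The values labelled male all lay above those labelled female. The rank of IGHV1-53 depended on the unit. Counted as groups of like CDR3 within 1 label (defined with the substitutions), IGHV1-26 had 142 groups and IGHV1-53 had 137. With clones counted once per label, IGHV1-80 had 50 groups from 81 clones and IGHV1-36 had 10 from 42.

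IGHV1-26 (chr12:114788372-114788805) followed with 4.84% (SD 0.859) and was more even, with its lowest share of 3.30% in spleen labelled male and its highest of 5.61% in bone marrow labelled male. IGHV1-55 (chr12:115208095-115208591) had 3.35% (SD 0.575), IGHV1-64 (chr12:115507545-115508031) 2.99% (SD 1.09) and IGHV1-80 (chr12:115912344-115912776) 2.75% (SD 1.16). The next 6 genes were IGHV1-50, IGHV1-9, IGHV1-72, IGHV1-81, IGHV1-18 and IGHV1-22, with means from 2.60% down to 1.69%. IGHV1-72, known as VH186.2 from the response of this strain to the hapten NP, had a mean share of 2.45% (SD 0.756). The other 9 of the 20, from IGHV1-69 at 1.28% to IGHV1-15 at 1.01%, also included IGHV1-78, IGHV1-42, IGHV1-82, IGHV1-75, IGHV1-76, IGHV1-36 and IGHV1-74. IGHV1-53 and IGHV1-26 differed by less than the larger of their SDs over libraries, and so did each neighbouring pair of genes from IGHV1-55 down, while the step from IGHV1-26 to IGHV1-55 was larger than either SD. Some germline genes are nearly alike, and reads between them are uncertain: IGHV1-52 and IGHV1-61, and IGHV1-20 and IGHV1-37, differ by 5 bases in their annotated transcripts.

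**Figure D2:**
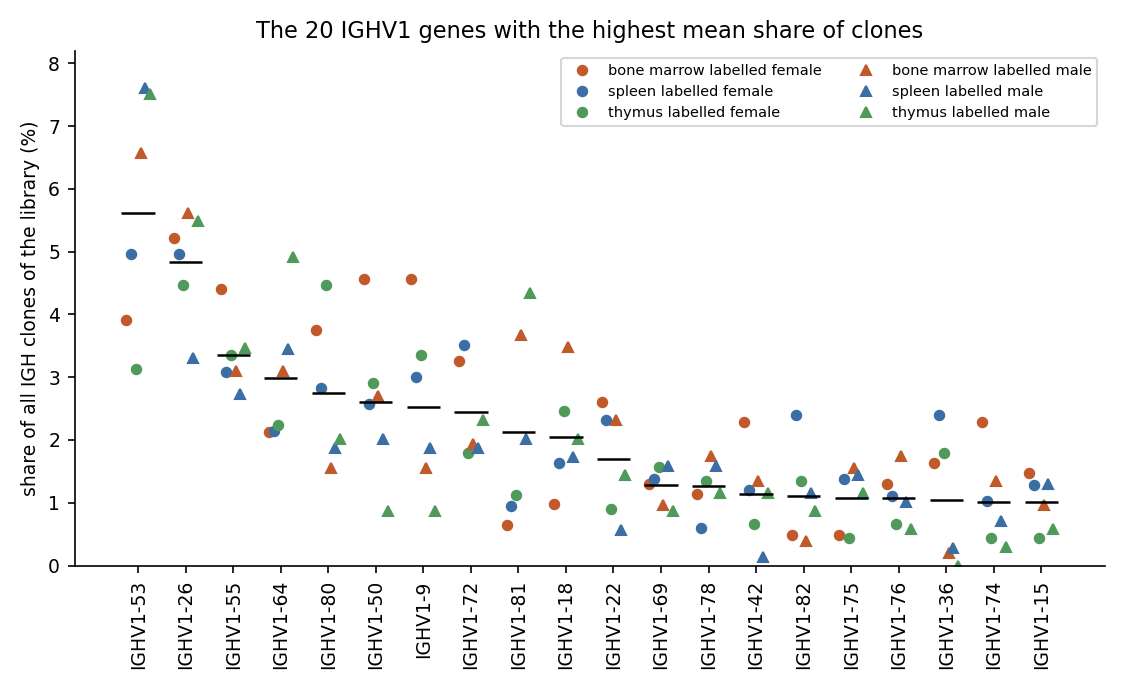
Share of all IGH clones of a library, in percent, for the 20 IGHV1 genes with the highest mean, 1 symbol per library (colour for tissue, circle for labelled female, triangle for labelled male) and a line at the mean. IGHV1-53 is at 6.58% to 7.60% in the libraries labelled male and 3.13% to 4.97% in those labelled female.

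No IGHV1 gene was called between tissues. In edgeR's quasi-likelihood test with 23 IGHV genes kept by the filter on low counts, 12 of them IGHV1 genes, 0% of genes were called in each of the 3 contrasts. At an unadjusted p under 0.05 the count was 2 of 23 genes in each contrast and 0 of the 12 IGHV1 genes, and DESeq2 and TMM scaling called 0 IGHV1 genes as well. The smallest adjusted p of an IGHV1 gene was 0.441 for thymus against bone marrow, 0.491 for thymus against spleen and 0.433 for spleen against bone marrow. IGHV1 log2 fold changes ran from -1.13 to 0.42 for thymus against bone marrow, with a median of -0.08 against -0.0024 over all genes tested. For spleen against bone marrow they ran from -0.70 to 0.54 with a median of -0.32, against -0.21 over all genes, and for thymus against spleen from -0.55 to 0.79 with a median of 0.04, against 0.21.

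Some genes differed between the sex labels. Of the 23 genes tested, 8 (34.8%) had clone shares that did not overlap between the 3 libraries of one label and the 3 of the other, and 6 of these 8 were among the 12 IGHV1 genes. IGHV1-53, IGHV1-64 and IGHV1-81 were higher in the libraries labelled male, and IGHV1-9, IGHV1-80 and IGHV1-36 in those labelled female. The mean share of IGHV1-81 was 0.904% against 3.34%, and that of IGHV1-36 was 1.94% against 0.160%, labelled female first. Most IGHV1-36 clones belonged to 1 group of like CDR3 from 1 label, as described with the substitutions. Libraries of 1 label shared clones, as described below, so they are not independent of each other, and sex, pool and mouse cannot be told apart.

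By isotype, the constant gene of the contig was IGHM in 32.5% (spleen labelled male) to 80.5% (spleen labelled female) of IGHV1 cells. IGHG genes were lowest at 5.20% in bone marrow labelled female and highest at 43.6% in spleen labelled male, and IGHA lay between 3.38% in spleen labelled female and 20.8% in thymus labelled male. No constant gene was assigned in 2.63% to 12.5% of IGHV1 cells, most in bone marrow labelled female. IGHV1 made up 76.04% and 73.3% of such clones in bone marrow labelled female and male, and 43.3% to 61.1% in the other 4 libraries. Among IGHM clones the IGHV1 share was 58.7%, 53.6% and 47.2% in bone marrow, spleen and thymus labelled female, and 56.6%, 44.4% and 48.3% in those labelled male. Among IGHG clones it was 64.7%, 63.9%, 51.4%, 58.2%, 53.8% and 57.8% in the same order. It was higher in IGHG than in IGHM clones in 6 of 6 libraries, by a mean of 6.84 percentage points (SD 3.50, n = 6, two-sided exact sign-flip permutation test p = 0.03125, the smallest that 6 libraries can give). After Benjamini-Hochberg adjustment over the 16 within-library tests the exact permutation p was 0.0833, so this difference did not pass 0.05. Since no such test can go below 0.03125, the adjusted p depended on how many of the 16 tests reached that value. Only 6 did, and the smallest adjusted p of all 16 was 0.0833. Not passing after adjustment thus cannot tell an absent difference from too few libraries, here and in the other within-library tests. With groups of like CDR3 counted in place of clones, the difference was 5.75 percentage points (exact permutation p = 0.0938).

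The IGHG subclasses gave IGHV1 shares of clones of 47.4% to 70.6% for IGHG2B (169 of 279 clones summed over libraries), 50.0% to 60.0% for IGHG2C (129 of 244) and 25.0% to 92.3% for IGHG3 (70 of 121). IGHG3 was at 92.3%, 84.0% and 57.1% in bone marrow, spleen and thymus labelled female, above IGHM in each. In those labelled male it was at 50.0%, 44.4% and 25.0%, below IGHM in bone marrow and thymus and equal to it at this rounding in spleen, with 8 to 54 IGHG3 clones per library. IGHG1 had 46 clones in all, too few for a share per library. For IGHA the IGHV1 share of clones minus that of IGHM was -5.81 to -1.28 percentage points in the 3 libraries labelled female and 4.79 to 12.04 percentage points in the 3 labelled male. Its mean difference was 2.66 percentage points (SD 7.83, n = 6, exact permutation p = 0.469, adjusted p = 0.654). It was 6.52 by cells, 4.12 over barcodes in the gene expression libraries and 0.788 to 4.36 without 1 library, lowest without thymus labelled male.

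Single IGHV1 genes were compared between classes with the library as a block, over 48 IGHV genes of which 27 were IGHV1 genes. None of the 27 was called in edgeR's quasi-likelihood test, against 2.08% of all genes for IGHA against IGHM and 4.17% for IGHG against IGHM. At an unadjusted p under 0.05 there were 3 of the 27 IGHV1 genes in each contrast, against 7 of all 48 genes for IGHA and 8 of 48 for IGHG. IGHV1-55 had 100 IGHM, 9 IGHG and 7 IGHA clones summed over libraries, and its log2 fold change was -1.34 (SE 0.50, adjusted p = 0.0944) for IGHG and -1.26 (SE 0.55, adjusted p = 0.287) for IGHA. IGHV1-72 had 59, 25 and 14 clones in the same order, and for IGHG its fitted change on the log2 scale was 1.07 (SE 0.42, adjusted p = 0.0944). IGHV1-50 had 78, 20 and 4 clones, with -1.63 (SE 0.66, adjusted p = 0.227) for IGHA. IGHV1-39 for IGHA (1.73, SE 0.83, adjusted p = 0.287) and IGHV1-19 for IGHG (1.48, SE 0.66, adjusted p = 0.157) were the third gene of each contrast, both above 0.

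The class results depended on the scaling. TMM moved the median log2 fold change of all 48 genes from -0.05 to -0.45 for IGHA and from 0.16 to -0.17 for IGHG. TMM called 3 of the 48 genes for IGHA and 5 for IGHG, and DESeq2 called 2 and 4. With TMM, IGHV1-55 was called lower in both classes (log2 fold change -1.72 for IGHG, adjusted p = 0.00794, and -1.71 for IGHA, adjusted p = 0.0218) and IGHV1-50 lower in IGHA (-2.10, adjusted p = 0.0214). DESeq2 called IGHV1-55 for IGHG (-2.03, adjusted p = 0.0337) and IGHV1-50 for IGHA (-2.41, adjusted p = 0.0420). IGHV1-53, with a log2 fold change of 0.69 for IGHA, was at -0.11 with DESeq2 and was called (1.08, adjusted p = 0.0425) when groups of like CDR3 replaced clones. Without 1 library this log2 fold change was 0.398 to 0.922.

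**Figure D3:**
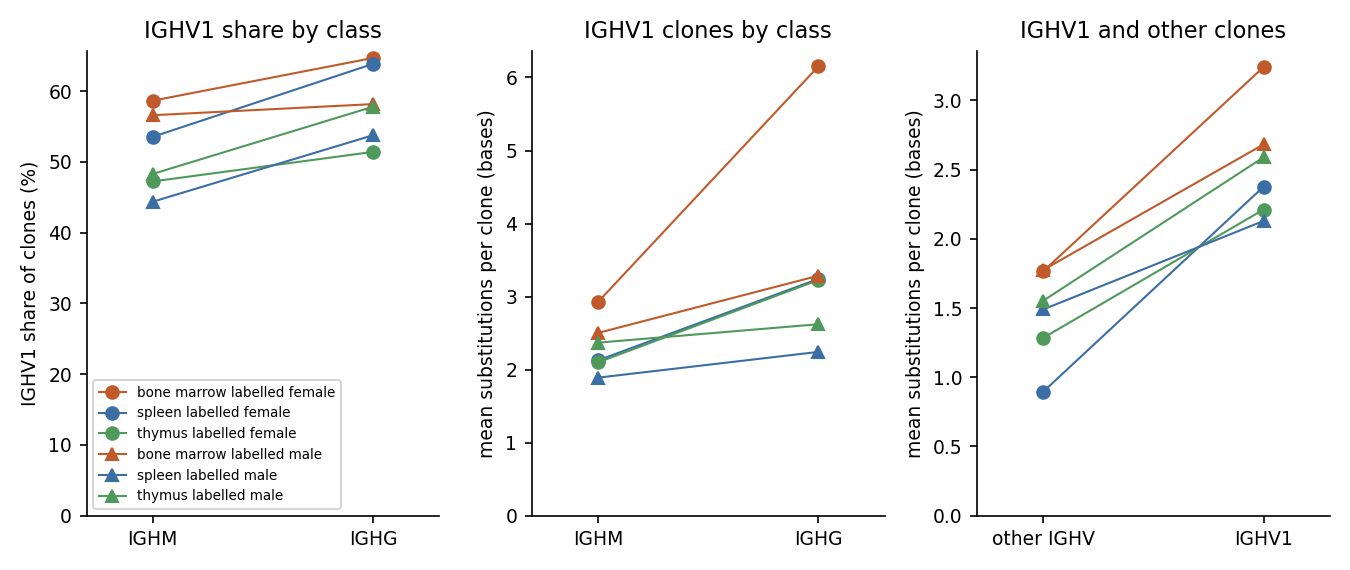
Left, IGHV1 share of IGHM and IGHG clones in percent; centre, mean V region substitutions of IGHV1 clones by class; right, mean V region substitutions of other IGHV clones and IGHV1 clones; each line is 1 library. All 6 lines rise from left to right in each panel, and bone marrow labelled female reaches 6.15 substitutions in IGHG clones.

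In all 6 libraries IGHV1 clones had a higher mean of substitutions from germline than clones of the other families, although the test did not pass after adjustment. Substitutions were counted over the V region from the first base of framework 1 to the end of framework 3, 285 bases in 4179 of the 4182 cells, against the GENCODE germline gene that the contig was assigned to. The mean per IGHV1 clone was 3.24, 2.38 and 2.21 in bone marrow, spleen and thymus labelled female, and 2.68, 2.13 and 2.59 in those labelled male. Other IGHV clones had 1.77, 0.896, 1.28, 1.78, 1.49 and 1.55 in the same order. The 2 sets of values do not overlap. The mean difference was 1.08 bases (SD 0.337, n = 6, higher in 6 of 6 libraries, exact sign-flip permutation p = 0.03125, adjusted p = 0.0833). Clones with no substitution in any of their cells made up 31.8% to 53.2% of IGHV1 clones and 49.3% to 72.9% of other clones. Medians were 0 to 2 for IGHV1 clones and 0 to 0.167 for other clones. The highest value of a clone was 58 for IGHV1, in thymus labelled male, and 86 for other clones, in bone marrow labelled female. Another germline gene was nearer than the assigned one in 18 of 4182 IGHV1 cells, and 2 of the cells needed a gap in the alignment.

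The mean was also higher in IGHG than in IGHM clones of the family in 6 of 6 libraries, again without passing after adjustment. IGHM clones had means of 2.93, 2.13 and 2.10 in bone marrow, spleen and thymus labelled female and 2.502, 1.89 and 2.37 in those labelled male. IGHG clones had 6.15, 3.24, 3.23, 3.29, 2.24 and 2.62. The difference was 1.14 bases (SD 1.09, n = 6, higher in 6 of 6 libraries, exact permutation p = 0.03125, adjusted p = 0.0833), and it was 0.726 without bone marrow labelled female and 0.666 with cells counted in place of clones. IGHA clones differed from IGHM clones by 0.335 (SD 0.678, n = 6, exact permutation p = 0.281, adjusted p = 0.500). That value was 0.675 with groups of like CDR3, 0.220 with clones by CDR3 bases, 0.0362 by cells, 0.195 without spleen labelled female and 0.579 without thymus labelled female. IGHV1 clones of 2 or more cells differed from clones of 1 cell by 0.0346 (SD 1.03, n = 6, exact permutation p = 0.938, adjusted p = 0.938), with 3 libraries in each direction.

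Substitutions per base were more frequent in CDR1 and CDR2 than in the framework in every library. The bounds of these regions were those of the deposited contigs, with 21 bases in CDR1 and 18 in CDR2 for IGHV1-53. Other definitions of the regions were not tried. Per 100 bases, IGHV1 clones had 2.12, 1.38 and 1.12 substitutions in CDR1 and CDR2 in bone marrow, spleen and thymus labelled female, and 1.58, 1.35 and 1.59 in those labelled male. The framework had 0.982, 0.748, 0.721, 0.840, 0.644 and 0.801. The ratio was 1.56 to 2.16, and the difference of 0.733 per 100 bases (SD 0.239, n = 6) was in the same direction in 6 of 6 libraries (exact permutation p = 0.03125, adjusted p = 0.0833).

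The genes differed in how far they were substituted. Among the 20 leading genes the mean was highest for IGHV1-36 (6.10 bases per clone, with 10.2% of its clones unsubstituted), IGHV1-72 (4.64, 31.0%), IGHV1-81 (3.66, 30.9%) and IGHV1-80 (3.34, 26.0%). It was lowest for IGHV1-78 (1.22, 59.1%), IGHV1-15 (1.40, 54.8%) and IGHV1-26 (1.76, 59.1%). The germline V regions of 4 genes are shown to locate the substitutions: IGHV1-26 with the most cells, IGHV1-53 with the most clones, IGHV1-80 with the shortest CDR3 and IGHV1-36 with the most substitutions. They are GENCODE vM21 sequences (GRCm38), written 5′ to 3′ from the first base of framework 1, and capitals mark bases that were substituted in at least 7% of the gene's clones.
IGHV1-26: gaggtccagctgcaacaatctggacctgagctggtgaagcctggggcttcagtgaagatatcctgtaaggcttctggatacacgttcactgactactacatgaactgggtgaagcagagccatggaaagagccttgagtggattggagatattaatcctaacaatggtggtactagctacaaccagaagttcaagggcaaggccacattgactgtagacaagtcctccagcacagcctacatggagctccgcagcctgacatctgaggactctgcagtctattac
IGHV1-53: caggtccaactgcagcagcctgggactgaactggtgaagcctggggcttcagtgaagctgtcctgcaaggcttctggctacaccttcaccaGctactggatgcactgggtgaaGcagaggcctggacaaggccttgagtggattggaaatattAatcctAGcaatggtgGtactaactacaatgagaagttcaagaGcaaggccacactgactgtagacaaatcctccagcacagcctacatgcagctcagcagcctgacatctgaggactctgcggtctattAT
IGHV1-80: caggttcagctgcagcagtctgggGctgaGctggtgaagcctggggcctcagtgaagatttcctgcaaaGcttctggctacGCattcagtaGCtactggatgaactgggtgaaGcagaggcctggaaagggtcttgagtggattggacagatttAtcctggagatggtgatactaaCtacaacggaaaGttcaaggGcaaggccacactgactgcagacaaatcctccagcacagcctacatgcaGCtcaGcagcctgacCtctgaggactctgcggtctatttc
IGHV1-36: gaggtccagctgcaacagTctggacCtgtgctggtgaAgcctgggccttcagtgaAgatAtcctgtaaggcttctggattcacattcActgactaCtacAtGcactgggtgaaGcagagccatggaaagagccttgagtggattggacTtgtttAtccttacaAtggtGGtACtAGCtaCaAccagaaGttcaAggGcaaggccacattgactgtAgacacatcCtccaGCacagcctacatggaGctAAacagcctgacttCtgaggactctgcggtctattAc

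IGHV1-26 had 0 such positions over 160 clones, IGHV1-53 had 9 over 185 clones, IGHV1-80 had 16 over 75 clones and IGHV1-36 had 34 over 42 clones. Positions are counted from 1 at the first base of framework 1, with the germline base before and the contig's base after the position. In IGHV1-80, the change G92A in CDR1 was in 34.7% of clones and in all 6 libraries, and G70A in framework 1 was in 22.7% of clones and 5 libraries. The neighbouring C93T was in 17.3% of clones and 6 libraries. In IGHV1-53, G92A was in 13.5% of clones and G197A in framework 3 in 16.2%, each in all 6 libraries. G197A was also in 17.1% of IGHV1-72 clones and 10.5% of IGHV1-55 clones, and G92A in 18.4% of IGHV1-74 clones and 11.7% of IGHV1-50 clones.

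A clone whose CDR3 was itself substituted counts as another clone, so such percentages can repeat 1 lineage. Clones of 1 sex label with the same V gene, J gene and CDR3 length and at least 85% identity of CDR3 bases were therefore gathered into groups. G92A of IGHV1-80 was in 12 groups, and that of IGHV1-53 in 11 groups. IGHV1-36 differed from these: 32 of its 42 clones, 67 of its 78 cells, formed 1 group with IGHJ4 and a CDR3 of 16 amino acids, found in 3 libraries and with a median of 7 substitutions. Its position 176 was substituted in 28 of 42 clones (66.7%), by G176A in 18 clones and by G176C in 11 clones. A clone whose cells differ at this position can count under both changes. The high values of IGHV1-36 thus describe mainly cells of 1 group. The largest groups of IGHV1-53 and IGHV1-72 held 22 and 17 clones, with medians of 5 and 9 substitutions.

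**Figure D4:**
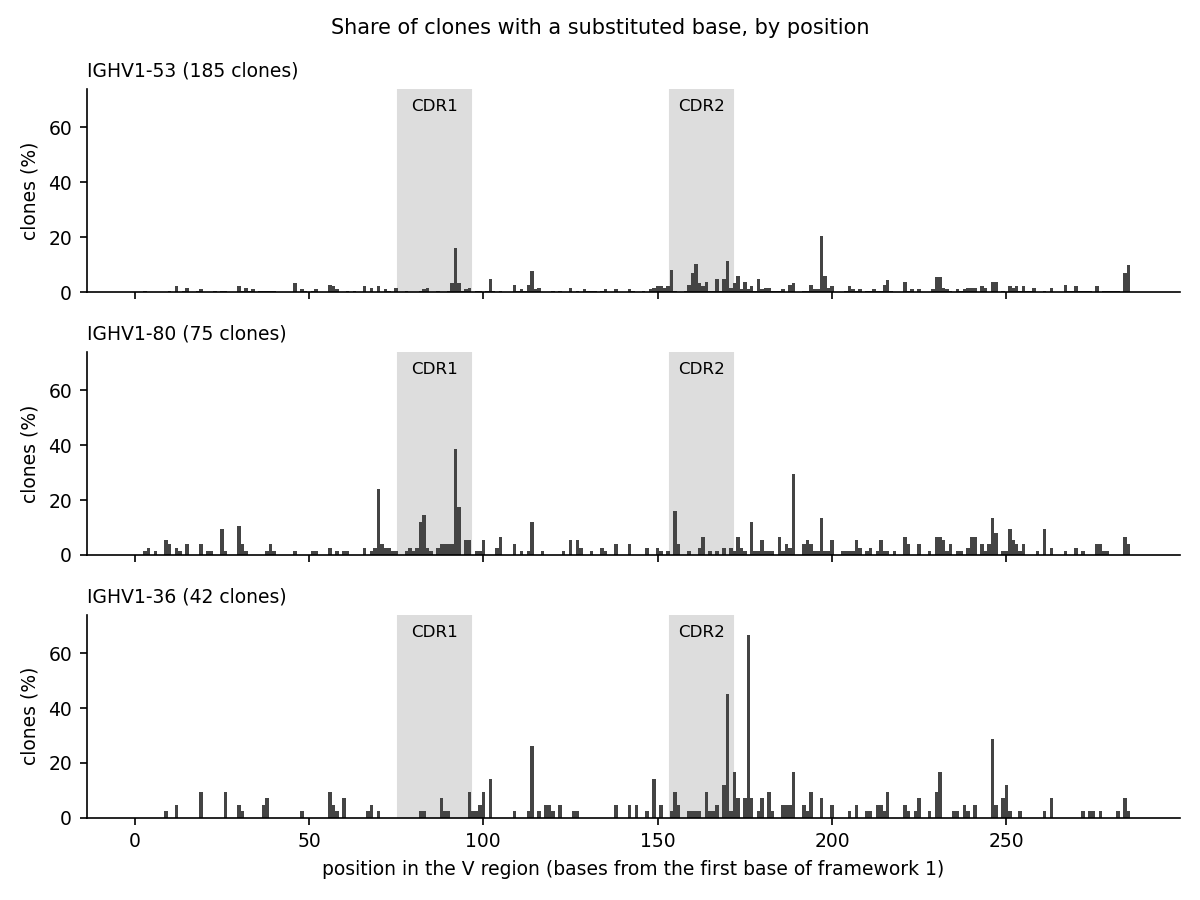
Percent of clones with a substituted base at each position of the V region, counted in bases from the start of framework 1, for IGHV1-53 (185 clones), IGHV1-80 (75 clones) and IGHV1-36 (42 clones), with CDR1 and CDR2 shaded. IGHV1-36 reaches 66.7% at position 176, just behind CDR2 as bounded in the deposited contigs.

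CDR3 lengths here count the cysteine and the tryptophan that flank the loop, as in the deposited contigs. The mean CDR3 length over IGHV1 clones was 13.9, 13.5 and 13.3 amino acids in bone marrow, spleen and thymus labelled female and 13.9, 14.2 and 13.9 in those labelled male, with SDs between clones of 2.81 to 3.07. The difference from other IGHV clones was 0.123 amino acids (SD 0.455, n = 6, higher in 4 of 6 libraries, exact permutation p = 0.531, adjusted p = 0.654). The mean of IGHG clones exceeded that of IGHM clones by 0.601 amino acids (SD 0.676, higher in 5 of 6 libraries, n = 6, exact permutation p = 0.125, adjusted p = 0.250), or by 1.12 by cells. The smallest exact permutation p over the alternatives was 0.03125, with an adjusted p of 0.0833, both with groups of like CDR3 and without clones of both labels. IGHA clones differed from IGHM clones by -0.189 (SD 0.493, n = 6, exact permutation p = 0.438, adjusted p = 0.654). The latter rested on thymus labelled male, at -1.06, and was -0.0149 without it, -0.316 without spleen labelled female, -0.288 over barcodes in the gene expression libraries, -0.0784 with clones by CDR3 bases and 0.108 by cells.

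Within the family the genes differed in CDR3 length. Among the 22 genes with at least 30 clones, the longest means belonged to IGHV1-36 (15.6 amino acids, SD 1.09), IGHV1-18 (15.3, SD 2.53) and IGHV1-72 (15.2, SD 2.78). The shortest belonged to IGHV1-80 (9.78, SD 3.32), IGHV1-50 (11.6, SD 2.67) and IGHV1-74 (11.95, SD 2.53). The mean and the small SD of IGHV1-36 rest mostly on its group of 32 clones, which all have 16 amino acids. In IGHV1-72 the largest group held 17 of 82 clones, all of 18 amino acids, and in IGHV1-18 it held 7 clones of 17 amino acids. Among the shortest, it held 12 IGHV1-80 clones of 7 amino acids, 11 IGHV1-50 clones of 9 and 4 IGHV1-74 clones of 12. The weight of these groups in the means was not tested. A CDR3 of 7 amino acids occurred in 77 of the 2054 IGHV1 clones (3.75%).

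**Figure D5:**
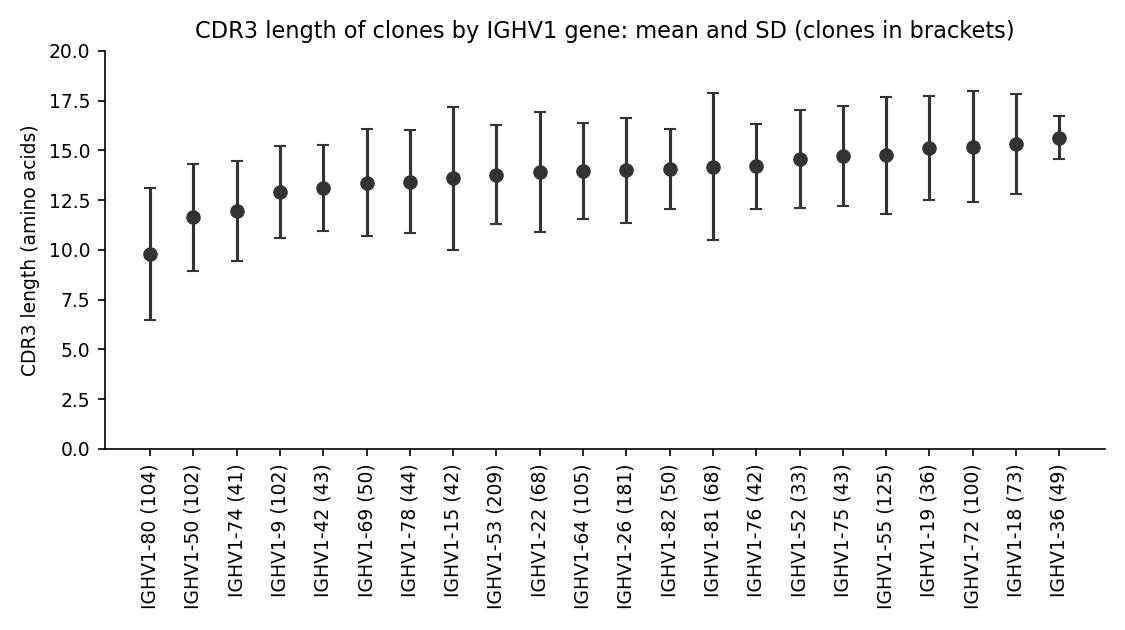
Mean CDR3 length in amino acids with the SD between clones for the 22 IGHV1 genes with at least 30 clones, clones summed over libraries in brackets. IGHV1-80 has the shortest mean, 9.78, and IGHV1-36 the longest, 15.6, with the smallest SD, 1.09, where 32 of 42 distinct clones are 1 group of like CDR3.

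Of the J genes, IGHJ1 was less frequent in IGHV1 clones than in other clones of the same library, without passing after adjustment. IGHJ1 was in 17.7%, 16.3% and 21.8% of IGHV1 clones in bone marrow, spleen and thymus labelled female and in 18.5%, 16.3% and 15.4% in those labelled male, against 30.7%, 20.1%, 22.8%, 25.1%, 19.8% and 19.5% of other clones. It was lower in 6 of 6 libraries, by a mean difference of -5.33 percentage points (SD 4.16, n = 6, exact permutation p = 0.03125, adjusted p = 0.0833), or -3.11 with groups of like CDR3. IGHJ4 was higher in 5 of 6 libraries by 5.02 percentage points (SD 5.75, n = 6, exact permutation p = 0.0938, adjusted p = 0.214), and by 0.229 when groups of like CDR3 replaced clones. The IGHJ4 difference was 3.25 to 6.41 without 1 library and reached 8.97 over the other alternatives. IGHJ2 differed by 1.07 (exact permutation p = 0.531) and IGHJ3 by -0.755 percentage points (exact permutation p = 0.656). IGHJ4 was joined to 79.6% of IGHV1-36 clones, 46.9% of IGHV1-53 clones and 43.1% of IGHV1-9 clones, against 10.3% of IGHV1-22 clones. The value of IGHV1-36 again rests mostly on its 1 large group.

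The share of lambda light chains was lower in IGHV1 cells than in other IGHV cells of each library, without passing after adjustment. Among cells with 1 productive light-chain contig, lambda made up 4.33%, 5.60% and 2.70% of IGHV1 cells in bone marrow, spleen and thymus labelled female and 4.78%, 19.4% and 15.4% in those labelled male. Other IGHV cells had 9.25%, 6.73%, 15.3%, 14.0%, 22.1% and 21.4%. The difference was -6.09 percentage points (SD 4.23, n = 6, lower in 6 of 6 libraries, exact permutation p = 0.03125, adjusted p = 0.0833). With each clone weighted equally, as the lambda share of its cells, it was -9.78 percentage points and again lower in 6 of 6 libraries, and the high value in spleen labelled male was 7.33% on that scale. That library held 91 cells of 1 IGHV1-78 clone with the lambda gene IGLV1. The leading light-chain V genes of IGHV1 cells were IGKV4-55 (mean 7.18%, from 2.15% to 14.3% over libraries), IGLV1 (6.74%, from 1.72% to 17.7%) and IGKV3-4 (6.30%, from 0.923% to 22.9%). Single clones carried part of each of these 3 values. The IGHV1-80 clone with IGHJ3 held 102 of 306 IGKV4-55 cells. The IGHV1-78 clone held 92 of 237 IGLV1 cells, and the IGHV1-66 clone 77 of 248 IGKV3-4 cells. Among these 3 genes and IGKV5-39, the order by clones was IGKV4-55 (137), IGLV1 (114), IGKV5-39 (111) and IGKV3-4 (81).

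Expansion of clones differed in direction between libraries. Clones of 2 or more cells made up 20.3% to 37.8% of IGHV1 clones and 19.7% to 43.4% of other clones, with a difference of -0.427 percentage points (SD 5.24, n = 6, exact permutation p = 0.906, adjusted p = 0.938). The largest IGHV1 clones are shown by the bases of their most frequent CDR3, written 5′ to 3′, with the bases between the parts that match the germline V and J genes in capitals.
IGHV1-80 with IGHJ3: tgtgcaagaGGGgcttactgg
IGHV1-78 with IGHJ2: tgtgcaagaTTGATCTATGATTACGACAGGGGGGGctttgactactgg
IGHV1-66 with IGHJ4: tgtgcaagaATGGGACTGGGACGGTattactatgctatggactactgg
IGHV1-26 with IGHJ4: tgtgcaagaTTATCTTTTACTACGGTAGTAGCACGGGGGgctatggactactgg
IGHV1-4 with IGHJ2: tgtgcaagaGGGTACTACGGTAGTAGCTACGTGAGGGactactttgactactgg

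The IGHV1-80 clone held 136 cells and was the only IGHV1 clone in all 6 libraries, with 40, 52 and 10 cells in bone marrow, spleen and thymus labelled female and 21, 9 and 4 in those labelled male. Of its cells 124 were IGHM, and 102 carried the light-chain gene IGKV4-55. The same 7 amino acids were written by 8 versions of the CDR3 bases, the leading one in 64 cells of 6 libraries. The 2 labels are different pools of mice. The 136 cells match in V gene, J gene and CDR3 amino acids and cannot be counted as 1 expanded lineage. This limit holds for every clone found in both labels. The IGHV1-78 clone had 92 cells, 91 in spleen and 1 in bone marrow labelled male, and all 92 carried IGLV1. The IGHV1-66 clone had 88 cells, all in bone marrow labelled female. The IGHV1-26 clone had 69 cells, 66 in spleen labelled male, and the IGHV1-4 clone had 58 cells, 44 of them in bone marrow labelled male and all 58 IGHG2B. Mean substitutions were 4.39 in the IGHV1-80 clone, 0.0761 in the IGHV1-78 clone, 2.85 in the IGHV1-66 clone, 0.101 in the IGHV1-26 clone and 1.57 in the IGHV1-4 clone. Single cells of the IGHV1-66 clone had from 0 to 38.

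The next clones by number of libraries, and then by cells, were 2 clones in 5 libraries and 2 clones in 4 libraries, given by their most frequent CDR3.
IGHV1-26 with IGHJ1: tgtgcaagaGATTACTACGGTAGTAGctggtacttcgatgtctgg
IGHV1-80 with IGHJ2, 5 libraries: tgtgcaagaGGGGGctactgg
IGHV1-55 with IGHJ1: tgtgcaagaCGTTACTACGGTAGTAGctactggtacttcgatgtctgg
IGHV1-80 with IGHJ2, 4 libraries: tgtgcaagaGGGgactactgg

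The IGHV1-26 clone of this set had 54 cells and the IGHV1-55 clone 21 cells, and the 21 cells had 0 substitutions while 4 versions of their CDR3 bases were seen. The 2 IGHV1-80 clones with IGHJ2 had 29 and 12 cells, and CDR3 regions of 7 amino acids as in the larger clone.

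Clones were shared mainly between tissues of 1 sex label. Bone marrow and spleen labelled female shared 100 IGHV1 clones, 27.6% of those in bone marrow and 15.6% of those in spleen. Bone marrow and spleen labelled male shared 61, or 20.2% and 17.5%. Thymus shared 48 clones with bone marrow and 51 with spleen labelled female, 21.8% and 23.2% of its IGHV1 clones, and 33 and 24 in those labelled male, 18.1% and 13.2%. Pairs of libraries with different labels shared 1 to 11 IGHV1 clones.

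Of the 1766 distinct IGHV1 clones, 221 (12.5%) were in 2 or more libraries, and 20 (1.13%) were in libraries of both labels. The 20 had a mean CDR3 of 10.6 amino acids (SD 3.72) and a mean of 11.05 bases between the germline V and J parts, and 16 of them were written by more than 1 version of CDR3 bases. The 201 clones shared within 1 label had 14.2 amino acids (SD 3.18) and 20.3 such bases, and 51 of them had more than 1 version. Clones in 1 library had 13.8 amino acids (SD 2.83). No substitution was found in 17.2% of the clones in 2 or more libraries and in 51.6% of those in 1 library. A clone counted here only when none of its cells had a substitution, so clones of more cells meet this less easily. The mean substitutions were 3.26 and 2.31 in the same order. Among other IGHV clones the shares without a substitution were 25.2% and 64.9%. These comparisons of kinds of clone are descriptions without a test, since larger clones are more likely to be found in more than 1 library.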

How the data were processed

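V(D)J libraries of 6 sorts (3 tissues, 2 sex labels, 3 mice per pool) were used. Per the submitters' processing notes, the authors ran Cell Ranger 6.0.2 with mm10/GRCm38. The deposited contig tables hold reads and UMIs as counts per contig, and the deposited gene expression matrices hold UMI counts per gene and cell. The submitters' filtered contigs were used, and contigs marked productive were kept. The members and lists were chosen with earlier results of these data known.

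Clones (V gene, J gene, CDR3 amino acids) were counted once per library. For comparisons of classes they were counted once per library and class, so a clone with IGHM and IGHG cells entered both arms. Clone counts per IGHV gene or family were fitted in R 4.3.3 with edgeR 4.0.16 (quasi-likelihood, sex label plus tissue, library size the total of clones, filterByExpr), and per gene, library and class with library as a block. There the default filter left no gene, so a minimum count of 1 was set. With 14 families no abundance trend was fitted. The SE of an edgeR fit was taken as the absolute log2 fold change divided by the square root of its F statistic. P-values were adjusted by Benjamini-Hochberg over all IGHV genes or families. Within-library differences were tested by flipping the signs of the 6 differences in all ways (two-sided exact permutation, smallest p 0.03125), adjusted over 16 tests. Of these 11 were planned, and the 5 on substitutions were added after the files were seen. Alternatives were cells for clones, CDR3 bases, the contig with most UMIs, at least 3 UMIs, barcodes in gene expression, clones of 1 label only, TMM, DESeq2 1.42.0, no filter, thinning to 346 clones, tissue alone, leaving out each library and, added later, groups of like CDR3, lambda by clone and differences from the nearest germline gene.

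The models were also run on simulated data with known changes, and no result given here rests on those runs. Substitutions were counted with edlib 1.3.9.post1 against GENCODE vM21 transcripts, with an ungapped alignment unless gaps saved more than 5 differences. Named were the 20 IGHV1 genes with the highest mean share, any IGHV1 gene called, the 3 longest and 3 shortest CDR3 means among genes with at least 30 clones, the 5 largest clones and the 5 clones in the most libraries. Genes outside that rule (IGHV1-39, IGHV1-19, IGHV1-59, IGHV1-52, IGHV1-61, IGHV1-20, IGHV1-37) were chosen after their values were seen. Intervals cover counting error only.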

Additional observations from a re-analysis of the deposited data

Results flagged for a closer look

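One library stood apart from the other 5 in the substitutions of IGHV1 clones. In bone marrow labelled female, IGHG clones carried 3.23 more substituted bases per clone than IGHM clones, against 0.253 to 1.13 in the other 5 libraries. It rests on 33 IGHG clones. Dixon's criterion marks about 1 in 20 groups by chance, and it was applied to the 16 within-library results and to the shares of the 20 leading genes.

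In 3 of the 16 within-library results, both libraries of one tissue lay above 0 and both of another below 0. With 2 libraries per tissue such a pattern can arise by chance, at a rate that was not worked out. None of these differences between tissues was tested. For the share of IGHJ2, IGHV1 minus other IGHV clones was above 0 in spleen and below 0 in thymus, and the tissue means were 6.15 percentage points apart. For the share of clones with 2 or more cells, it was above 0 in bone marrow and below 0 in thymus, 9.19 percentage points apart. For substitutions, IGHV1 clones of 2 or more cells minus those of 1 cell were above 0 in spleen and below 0 in bone marrow, 1.39 bases apart.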

How the results depend on the processing

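Of 409 alternatives over 28 results, 378 kept the direction and the side of the threshold, 18 reversed, 7 moved a count and 6 brought a gene past the threshold. For the within-library results the side of the threshold could hardly change. Their exact permutation p cannot go below 0.03125 before adjustment, nor below 0.0625 without 1 library. The lambda share by clone had no adjusted p, so only its direction was compared. IGHV1 genes called numbered 0 in each comparison as reported. Cells in place of clones called 1 for thymus against spleen (IGHV1-59, log2 fold change 1.96), the 1 gene called of 42, and leaving out spleen labelled male called 1 for spleen against bone marrow (IGHV1-82, 2.18) of 2 genes called of 32, where the lone spleen library is assumed to vary like the other tissues, with a range of 0 to 1 over the libraries left out. For IGHA against IGHM the count was 2 with TMM, 1 with DESeq2 and 1 with groups of like CDR3, out of 3, 2 and 2 of all 48 genes called. For IGHG against IGHM it was 1 with TMM and 1 with DESeq2, out of 5 and 4 genes. IGHV1-53 for IGHA turned to -0.11 with DESeq2.

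The other reversals were in results that did not pass the test. The family's log2 fold change for thymus against spleen was 0.20 by cells and -0.14 to 0.041 without 1 library. CDR3 length of IGHV1 minus other clones was -0.012 to 0.24 without 1 library, and IGHA minus IGHM was 0.11 by cells. The difference in clones of 2 or more cells was 0.67 over barcodes in the gene expression libraries and -1.47 to 1.35 without 1 library. IGHJ2 was -0.21 with clones by CDR3 bases, -6.14 by cells and -0.048 to 2.27 without 1 library. IGHJ3 was 0.53, 2.41 and -1.78 to 0.053 in the same order. Substitutions of clones of 2 or more cells minus 1 cell were -0.12 with CDR3 bases and -0.20 to 0.36 without 1 library. The cause was not tested. Without 1 library the exact permutation test cannot go below 0.0625. The sex label enters the tissue fits as a block that pairs the libraries of 1 label, which shared 24 to 100 IGHV1 clones. Without that replicate block 0 IGHV1 genes were called in each tissue contrast, and the family's log2 fold changes were -0.21, -0.045 and -0.16 for thymus against bone marrow, thymus against spleen and spleen against bone marrow, none of them called.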
